A study of Mus musculus with 7 samples.

Results

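The PC-2F library held 95 mouse cells made from cultured cerebral pericytes, the mural cells of brain capillaries, by viral delivery of the transcription factors Olig2 and Sox10. Its members were taken as all cells of this library with 500 or more unique molecular identifiers (UMIs). The library has 179 barcodes, all above that minimum, but 84 pairs of them differ by the first base only and carry matching transcripts, so the deeper barcode of each pair was kept. Counted in this way the 7 libraries of the series hold 606 cells from 1124 barcodes, and no barcode was shared with another library. The cells came from the C57BL/6 strain, were kept in OPC medium after transduction, and were dissociated with trypsin and captured in droplets for 3′ counting. The untransduced pericyte library (PC), grown in pericyte medium, is used below only as a background for the 2 delivered genes. Several things limit the population as a model. It was 1 library, the donor cells were a culture, the labels give no vector, promoter or time after transduction, and nothing in the counts separates cells that took up virus from cells that did not. Ranges in brackets after a level, share or fold are exact 95% intervals for counting error. No test between cells or clusters was made, because cells of 1 library are not replicates.

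Oligodendrocyte progenitor cells (OPCs) are dividing glial precursors from which the myelinating oligodendrocytes form. Olig2 specifies the lineage together with its paralog Olig1, and Sox10 maintains glial identity and switches on myelin genes and the neuregulin receptor gene Erbb3. Pdgfra encodes the receptor through which platelet-derived growth factor keeps OPCs dividing. Trf encodes transferrin, an iron carrier made by oligodendrocytes, and Lcn2 encodes lipocalin 2, a secreted protein that binds bacterial iron carriers and is strongly made by glia in inflammation. In brain tissue pericytes are marked by Pdgfrb and Rgs5, and the boundary between cultured pericytes and fibroblasts is not sharp.

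The pairs of barcodes stand before all results because they decide what a cell is here. In each of the 84 pairs the barcodes were each other's best match in the library, with Pearson correlations of 0.557 to 0.767 (median 0.634) on centred log2(CPM + 100), where CPM is UMIs per 1000000, against a median of -0.00894 between unpaired barcodes. The shallower barcode held 42.7% to 63.6% of the UMIs of the deeper. Small counts were divided between the 2 barcodes with 0.452 of the variance of a random split, so the pair is not an independent sample of molecules, and adding its counts could count molecules more than once. Keeping the deeper barcode was decided after the data were seen, and results with the barcodes apart or added together are given where they differ.

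The kept barcodes held 794162 UMIs, from 926 to 16172 per cell with a median of 8166, over a median of 3452 genes per cell. The deposited values are not UMI counts as they stand. They were read as places in a text-sorted list of the counts that occur, an inference that no label states and on which each level below rests. Counts recovered with a probability above 0.99 made up 97.2% of UMIs, but the large counts of abundant genes are less certain. That share was 57.7% for Lcn2, 63.7% for Trf, 31.5% for Fth1 and 28.5% for Spp1, against 100% for Olig1, Olig2, Sox10, Erbb3, Pdgfra, Cp, C3 and Cxcl1. Markers of endothelial cells, macrophages and keratin-rich or mesothelial cells summed to at most 37.8 CPM in any cluster, over the 5 of 12, 5 of 12 and 2 of 10 list members with a row. The other members of those lists were not analysed here. No doublet caller was run.

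The 5 genes named for this population were checked first. Trf was found in 94 of 95 cells, at 0 CPM in the lowest cell, 4194 in the median cell and 47308 in the highest. The lowest and highest cells were shallow, with 1834 and 1226 UMIs. Among the 82 cells of at least 4394 UMIs Trf ran from 273 to 40604 CPM. Lcn2 was found in 68 cells, with a median of 332 CPM per cell and a highest value of 30458 CPM. Both genes were thus low in some cells and very abundant in others. Erbb3 was found in 74 cells (median 392 CPM, highest 5046), Pdgfra in 83 cells (median 292 CPM, highest 1708) and Sox10 in 58 cells (median 126 CPM, highest 1500.1). The highest Erbb3 value also came from a shallow cell, of 1189 UMIs. In the GRCm38 mouse assembly these genes lie on chromosome 9 from 103204001 to 103230444 (Trf), chromosome 2 from 32384633 to 32388252 (Lcn2), chromosome 10 from 128567523 to 128589652 (Erbb3), chromosome 5 from 75152292 to 75198215 (Pdgfra) and chromosome 15 from 79154908 to 79165240 (Sox10).

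The delivered genes were seen in a minority of cells at equal depth. With each cell thinned to 1000 UMIs, which leaves out 1 cell, a Sox10 UMI was present in 19 of 94 cells (20.2%, 12.6 to 29.8) and an Olig2 UMI in 14 of 94 cells (14.9%, 8.39 to 23.7). At the same depth none of 154 cells of the PC library held either, which allows a share of up to 2.37%. Before thinning, cells had a median of 8166 UMIs in PC-2F and 3800 in PC. Without thinning, the shares were 61.1% for Sox10 and 44.2% for Olig2. Over all their UMIs, 33 of 95 cells held both genes, 25 held Sox10 only, 9 held Olig2 only and 28 held neither. Because a cell can carry a transcript without yielding a UMI, and because tags at the 3′ end may miss a viral transcript, these are not shares of transduced cells. Olig1, which was not among the delivered factors, was seen in 19 of 94 thinned cells (20.2%). Nkx6-2, added to the other factors in 3-factor libraries of the series, gave 1 UMI.

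Grouping of the cells by their 1000 most variable genes gave 4 clusters of 18 to 27 cells. Cluster 4, with 18 cells or 18.9% of the library (11.6 to 28.3), stood apart along the first principal component. Its cells recurred as a group of 15 to 18 in 12 re-clusterings, with 84.2% to 100% of the joint membership shared. The other clusters were less settled: the overlap fell as low as 42.9% for cluster 1, 49.1% for cluster 2 and 57.7% for cluster 3. They are described as ranges of a continuum and not as cell types. Since the clusters were formed on the same genes, the differences below describe them and are no support for their number.

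Depth and mitochondrial share also varied between cells. Median depth was 8152, 7919.5, 9047.5 and 7942 UMIs in clusters 1 to 4. Mitochondrial UMIs made up 2.29%, 1.92%, 1.89% and 0.692%. The 13 shallowest cells, below the library median divided by 3, had 926 to 2585 UMIs and 6.35% of mitochondrial UMIs, while the 82 others had at least 4394 UMIs and 1.64%. Of the shallow cells 2, 6, 4 and 1 were in clusters 1 to 4, and 2 of the 13 had a paired barcode, against 82 of 82 others. Trf was at 10482.5 CPM in the shallow cells and 6107 CPM in the others, and Lcn2 at 862 and 3360 CPM.

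**Figure D1:**
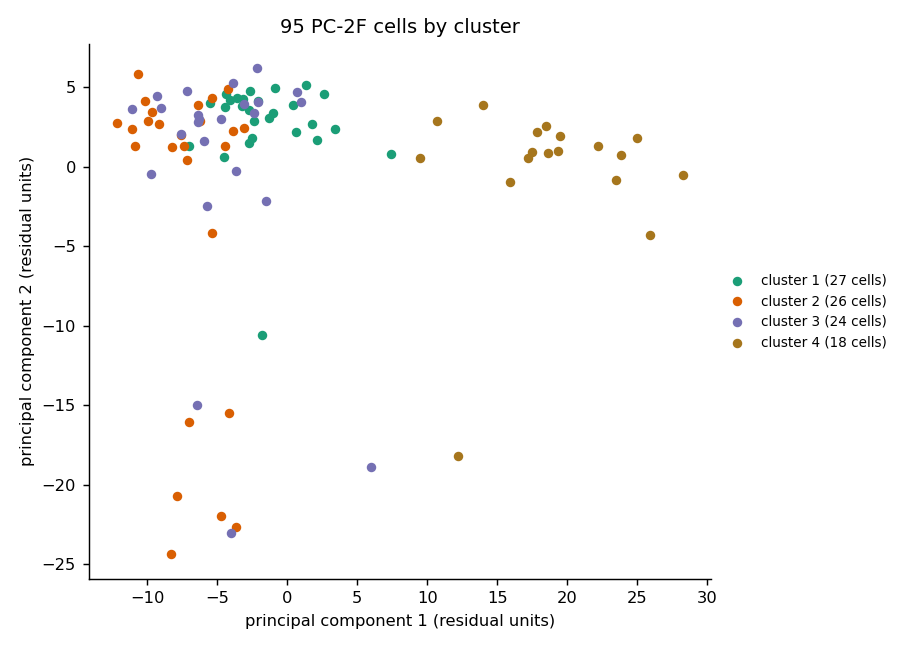
Each point is 1 of the 95 cells on the first and second principal components of scaled log levels, coloured by cluster. The axis labels call these residual units, but residuals served only to choose the genes. The 18 cells of cluster 4 lie at the right and the other 3 clusters overlap at the left; the 11 cells at the foot of the plot are all among the 13 shallowest.

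Cluster 4 held fibroblast-like cells with little of the glial programme. Sox10 was at 12.6 CPM (1.53 to 45.5) there, in 2 of 18 cells, against 312 CPM in the 77 cells outside it, and Erbb3 was at 44.1 CPM against 530 CPM. Olig1 was at 44.1 CPM against 420.2 CPM, and Olig2 at 25.2 CPM against 208 CPM. At 1000 UMIs per cell, Sox10 was seen in 1 of 18 of these cells and in 18 of 76 others, Olig2 in 1 of 18 and 13 of 76, and Olig1 in 0 of 18 (up to 18.5%) and 19 of 76. Trf was at 3048 CPM in cluster 4 and 7015 CPM outside it, where clusters 1, 2 and 3 were at 9560, 4679 and 6576 CPM. The median cell held Trf at 2707 CPM in cluster 4 and 3599 CPM in cluster 2. Pdgfra was at 214 CPM in cluster 4 and 398 CPM outside it, and Lcn2 at 2607 and 3466 CPM. These 2 genes thus differed by less than 2-fold. The mitochondrial share of 0.692% was the lowest of the 4 clusters, and its part in these differences was not tested. Single cells of cluster 4 ran from 0.0313% to 9.52%. The lowest cell outside it was at 0.430%, and several cells of cluster 4 lay below that.

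Of the OPC list, 0 of 16 measured members were at least 2-fold higher in cluster 4 and 13 were lower. Over all 5025 measured genes, 10.9% were higher and 10.8% lower by the same rule. The median log2 difference of the list was -2.78, beside -0.02 over all genes. Oligodendrocyte differentiation genes had 1 of 17 members higher, Gsn, and 13 lower. The cartilage matrix list, which covers collagens II, IX and XI, aggrecan and the transcription factor gene Sox9, had 1 of 8 higher and 7 lower. The higher member was Sox9, at 132 CPM in cluster 4 with 1 UMI elsewhere, a 84.0-fold difference (13.5 to 3474). Sox2, a progenitor factor gene, had no UMI in cluster 4 and was at 161 CPM elsewhere. Myrf, the transcription factor gene that drives myelination, also had no UMI there, against 157 CPM. Col9a1, a collagen IX chain gene, was at 113 CPM against 2164 CPM.

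Spp1, on chromosome 5 from 104435118 to 104441050, encodes the phosphoprotein osteopontin. It was present in all 18 cells, at 1048 CPM in the lowest, 12481 in the median and 51555 in the highest. In the other 77 cells its median was 126 CPM and its highest value 3303 CPM, in a shallow cell of 1211 UMIs. Among those of the 77 with at least 4394 UMIs the highest was 873 CPM, so the overlap lay in shallow cells. The matrix protease gene Mmp3 was at 1473 CPM with 1 UMI elsewhere, a 936-fold difference (166 to 37132), and came from 12 of the 18 cells. The chemokine gene Ccl7 was 582-fold higher (160 to 4829) in 15 cells, and the small proteoglycan gene Dcn 294-fold higher (79.97 to 2451) in 7 cells.

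Several surface and matrix genes were seen in no cell outside cluster 4. Pdgfrb, the receptor gene that marks pericytes and many fibroblasts, was at 428 CPM in all 18 cells, between 66.5 and 1541 CPM, and had no UMI in the other 77. That is at least 90.7-fold higher with the other cells set at 3 UMIs. Fbln2, a fibulin of elastic matrix, was at 428 CPM in 13 cells, Cd248, the endosialin gene of mural and stromal cells, at 252 CPM in 12, and Thy1, a surface marker of fibroblasts, at 227 CPM in 3. At least 2 UMIs of Dcn, Thy1, Pdgfrb, Fbln2 and Cd248 together were found in 15 of 18 cells of cluster 4 and in 1 of 77 others. At least 10 UMIs of Sox10, Erbb3 and Col9a1 together were found in 0 of 18 and in 61 of 77. As these genes helped to form the cluster, the counts only describe how sharply its cells were separated.

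Of the fibroblast list 15 of 20 measured members were higher in cluster 4, Col1a1 at 1625 CPM against 126 CPM among them, and 3 were lower, namely Fn1, Postn and Thbs2. The sum of the list was 16472 CPM in cluster 4 and 11804 CPM in the other cells. Against cluster 1, the largest, it was 0.21 (0.13 to 0.28) higher on the log2 scale, with the OPC list at -1.60 (-1.82 to -1.38). Over 14 alternative settings these 2 differences ran from 0.14 to 1.15 and from -2.21 to 0.80. The OPC list was above 0 with each barcode taken as a cell, where the cluster of the highest fibroblast sum held 6.15% of barcodes, and below 0 in the 13 others. Pericyte genes were split, with Cd248, Foxc1, Notch3 and Pdgfrb higher and Cspg4 and Rgs5 lower, of 7 measured. Cspg4, the NG2 proteoglycan gene that pericytes and OPCs share, was at 378 CPM in cluster 4 against 774 CPM. Contractile genes had 5 of 8 members higher and 0 lower, with Acta2, the smooth muscle actin gene, at 359 CPM against 26.8 CPM. Of the list's 18 pericyte genes, 8 had no row and were not analysed here.

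**Figure D2:**
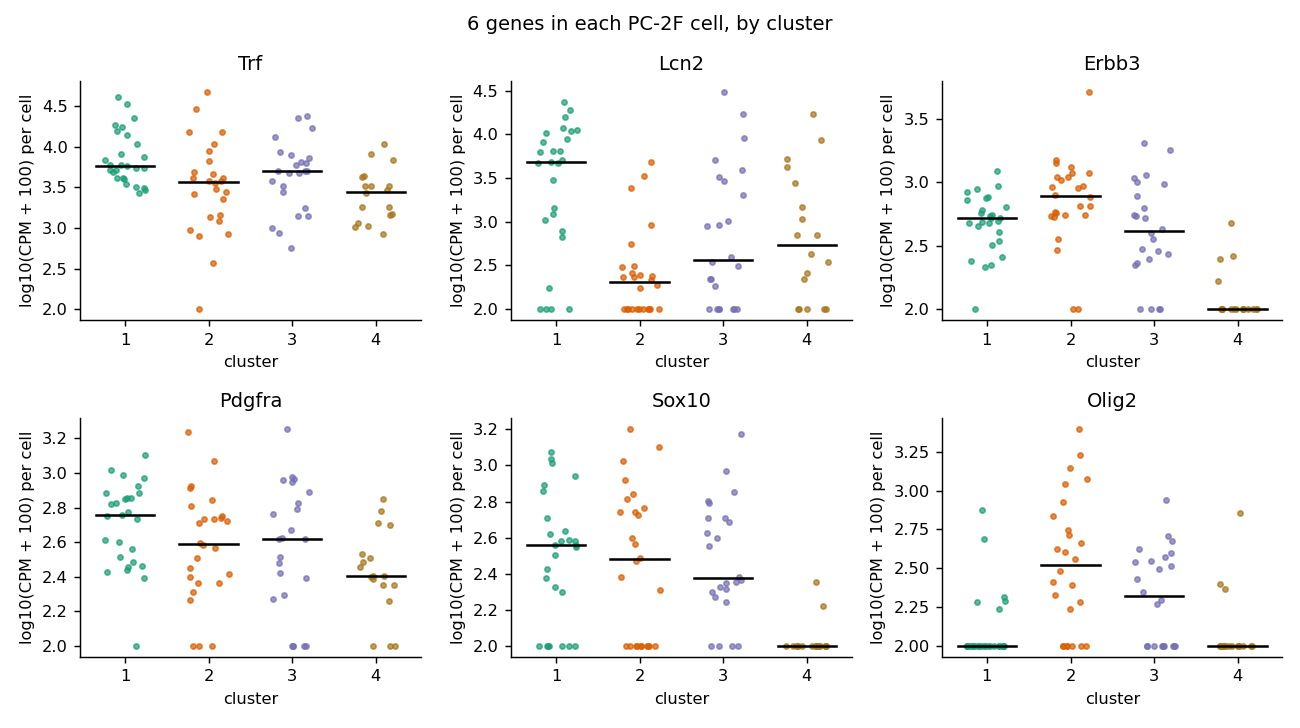
Each point is 1 cell, the vertical axis is log10(CPM + 100), and black lines are cluster medians. Sox10 and Erbb3 are near the bottom in cluster 4, Olig2 is near the bottom in clusters 1 and 4, and Lcn2 has its highest median in cluster 1 and its lowest in cluster 2.

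Outside cluster 4 the cells were ordered by Lcn2 and parted into 3 groups. The Lcn2-low group of 26 cells held 4 Lcn2 UMIs in all, the middle group of 26 was at 768 CPM and the Lcn2-high group of 25 at 9448 CPM. These values made the groups and are not a result. Complement C3, a central protein of the complement cascade, was at 29.6 CPM (10.9 to 64.3) in the low, 143 CPM (96.9 to 202) in the middle and 526 CPM (433 to 632) in the high group. Cp, which encodes the ferroxidase ceruloplasmin, was at 557, 1339 and 3540 CPM in the same order, and the neutrophil-attracting chemokine gene Cxcl1 at 39.4, 331 and 637 CPM. Cebpd, a transcription factor gene of the acute phase response, was at 330, 1026 and 1493 CPM. Trf was at 3951, 5225 and 11718 CPM, 2.97-fold higher (2.74 to 3.22) in the high than in the low group. Each of these 5 genes was thus higher at each step.

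Of the acute phase list 10 of 12 measured members were at least 2-fold higher in the Lcn2-high than in the Lcn2-low group and 0 were lower, and of the iron handling list 6 of 9 were higher and 0 lower. Over all 5012 measured genes 4.37% were higher and 5.05% lower. Both lists include Lcn2, which set the order. The 6 iron genes were Lcn2, Cp, Fth1, Trf, Aco1, an iron-sensing enzyme, and Slc11a2, a metal importer gene. Immediate early and stress genes had 4 of 13 members higher and 0 lower. Median depth was 8587, 8166.5 and 9402 UMIs in the low, middle and high groups, and mitochondrial UMIs made up 2.07%, 2.06% and 1.99%.

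Iron storage genes differed from each other along this order. Fth1, the ferritin heavy chain gene on chromosome 19 from 9980598 to 9985098, was at 5045 CPM in the low, 7649 CPM in the middle and 17733 CPM in the high group. Ftl1, which encodes the light chain that assembles with it, was at 143, 147 and 177 CPM, and high over low was 1.24-fold (0.743 to 2.08). Both genes have near-identical copies in the genome among which reads can be split or lost, so their levels are uncertain. Tfrc, the transferrin receptor gene, was at 69.0, 115 and 126 CPM with overlapping intervals. Serpina3n, another acute phase gene, was at 5754, 6610 and 5266 CPM, with no step as large as 2-fold.

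The promoters of Lcn2, C3 and Cxcl1 are shown because these genes were more than 2-fold higher in the high than in the low group, with Lcn2 as the gene that set the order, and their response to inflammation is known to run through C/EBP and NF-κB factors. The sequences are RefSeq entries of the GRCm38.p6 build, from 250 bases before to 50 after a start site, on the gene's strand, with motif matches in capitals. Lcn2 is given for chr2:32387690-32387989 (minus strand), C3 for chr17:57228087-57228386 (minus strand) and Cxcl1 for chr5:90890995-90891294 (plus strand).
Lcn2: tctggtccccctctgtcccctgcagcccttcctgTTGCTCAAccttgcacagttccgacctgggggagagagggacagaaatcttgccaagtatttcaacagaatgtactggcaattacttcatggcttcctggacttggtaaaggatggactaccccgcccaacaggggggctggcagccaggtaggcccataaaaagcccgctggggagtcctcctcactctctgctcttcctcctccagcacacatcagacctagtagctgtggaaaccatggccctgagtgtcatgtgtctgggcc
C3: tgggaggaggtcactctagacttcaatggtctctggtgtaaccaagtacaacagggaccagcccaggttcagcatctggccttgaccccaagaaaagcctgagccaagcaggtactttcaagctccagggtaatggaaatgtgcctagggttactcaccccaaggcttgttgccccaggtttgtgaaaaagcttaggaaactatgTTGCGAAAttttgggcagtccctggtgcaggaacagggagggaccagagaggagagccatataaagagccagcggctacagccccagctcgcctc
Cxcl1: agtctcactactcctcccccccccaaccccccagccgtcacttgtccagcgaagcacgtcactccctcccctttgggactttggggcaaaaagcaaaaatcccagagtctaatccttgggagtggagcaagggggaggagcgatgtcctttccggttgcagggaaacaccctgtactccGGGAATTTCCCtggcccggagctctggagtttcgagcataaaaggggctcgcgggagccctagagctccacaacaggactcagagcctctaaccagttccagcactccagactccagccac
The search covered both strands for TTGCNNAA, a C/EBP pattern, and for GGGA, any 3 bases and TCC in a row, an NF-κB pattern. Of 32851 mouse promoter windows of this length, 10.8% held the first and 4.59% the second. Lcn2 held TTGCTCAA at position -216 and C3 held TTGCGAAA at -45 from the start site. Cxcl1 held a pair of overlapping matches to the NF-κB pattern. Serpine2, Thbs2, Cp and Fth1 were also more than 2-fold higher in the high group, and their promoters are not printed. Of these, Serpine2 and Thbs2 held neither pattern and Cp held a C/EBP match in 1 of 2 start sites. Fth1 held none in 1 start site and 2 C/EBP matches in the other, and Olig2 held neither pattern. The genes printed are thus the ones with a match in every window searched. Trf, Olig1, Sox10, Erbb3, Cebpd and Mmp2 had no entry. A match is a run of letters and no evidence that a factor binds there.

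**Figure D3:**
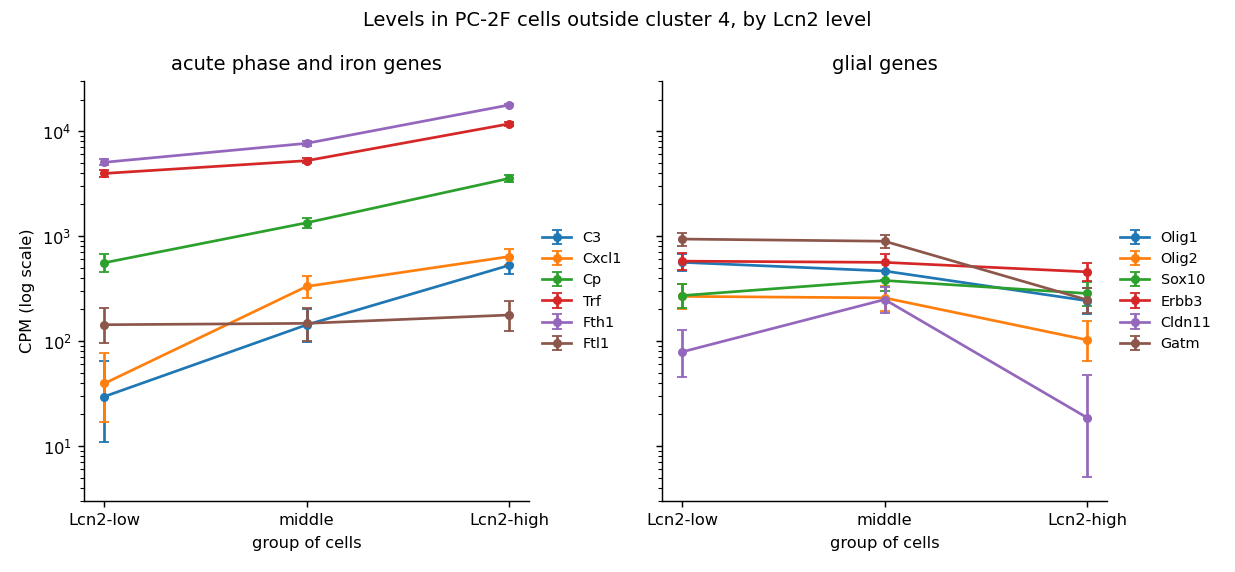
Levels (CPM, log scale) in the Lcn2-low, middle and Lcn2-high groups of the 77 cells outside cluster 4, with exact Poisson intervals. C3, Cxcl1, Cp, Trf and Fth1 are highest in the Lcn2-high group, Olig1, Olig2 and Gatm are lowest there, and the intervals of Ftl1, Sox10 and Erbb3 overlap between groups.

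Along the same order Olig1 and Olig2 were lowest in the Lcn2-high group. Olig2 was at 266 CPM (199.8 to 347) in the low, 258 CPM (195 to 335) in the middle and 102 CPM (64.1 to 155) in the high group, a log2 difference of -1.38 (-2.16 to -0.64) between high and low. Olig1, its neighbour on chromosome 16 (91269772 to 91271933), was at 562, 465 and 242 CPM, a log2 difference of -1.22 (-1.72 to -0.73). Of the 52 Olig1 UMIs of the high group, 33 came from 1 cell, at 2579 CPM. That cell had the lowest Lcn2 level of the high group, 2891 CPM, and the counting interval does not cover its weight. Sox10 was at 271, 377 and 284 CPM, a log2 difference of 0.07 (-0.48 to 0.62), whose interval spans 0. Over 8 alternative settings the difference ran from -2.62 to -0.87 for Olig2, from -2.74 to -0.76 for Olig1 and from -0.56 to 0.13 for Sox10. Whether Sox10 differed from Olig1 in this was not tested. Erbb3 was at 576, 561 and 456 CPM and Cspg4 at 793, 764 and 768 CPM.

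The OPC list had 0 of 17 measured members higher and 4 lower in the Lcn2-high than in the Lcn2-low group, namely Olig1, Olig2, Gpr17 and Scrg1. Oligodendrocyte differentiation genes had 1 of 19 higher, Trf, and 4 lower, and cartilage matrix genes had 0 of 7 higher and 5 lower. Gatm, which encodes the first enzyme of creatine synthesis, was at 936, 892 and 247 CPM over the low, middle and high groups. Col9a1 was at 2862, 2534.5 and 1130.4 CPM, and S100b, a calcium-binding protein gene of glia, at 1320.3, 851 and 474.5 CPM. Cldn11, the tight junction gene of myelin, had its highest level in the middle group, at 78.8, 248 and 18.6 CPM. Its 54 UMIs in the middle group came from 9 cells, 20 of them from 1 cell at 1587 CPM, and another cell was at 1388 CPM. The peak thus rests on few cells.

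Likeness between genes was read over single cells. Across the 77 cells, on log2(CPM + 100), Lcn2 was most like Cp (Pearson r = 0.70), Fth1 (0.62), Mmp2 (0.60), a matrix metalloprotease gene, and Cebpd (0.58) among 407 genes of at least 200 UMIs. Its r was -0.32 with Olig1, -0.25 with Olig2 and 0.01 with Sox10. Among the 407 genes Olig1 was most like Gatm (0.52) and most opposed to Trf (-0.49), Fth1 (-0.46) and Cp (-0.45). Olig2, with 136 UMIs, was too low to be ranked, and its r with Olig1 was higher, at 0.65. Sox10 reached at most 0.39 with any of the 407 genes, with Prdx2. These coefficients describe cells that share 1 library and differ in depth.

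Cluster 1 (27 cells) held 17 of the 25 Lcn2-high cells. Lcn2 was at 6064 CPM there and 2214 CPM in all other cells, Fth1 at 15503 against 7771 CPM, Trf at 9560 against 4920 CPM and Cp at 3142 against 1257 CPM. Every one of its 27 cells held Trf, between 2579 and 40604 CPM, whereas 6 of them held Olig2 and 8 held Olig1. Olig2 was at 62.8 CPM (34.4 to 105) against 214 CPM in all other cells, and Sox10 at 332 CPM against 221 CPM, a ratio of 1.51 (1.12 to 2.02). The other cells include cluster 4, with Sox10 at 12.6 CPM, while clusters 2 and 3 were at 364 and 239 CPM. Saa3, an acute phase protein gene, was 6.28-fold higher (3.67 to 11.2) and Serpine2, a protease inhibitor gene of glia, 2.29-fold higher (2.15 to 2.44).

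By lists, cluster 1 was not uniformly high in acute phase genes. Of that list 5 of 13 measured members were at least 2-fold higher than in all other cells, Cebpd, Cxcl5, Lcn2, Saa3 and Steap4, and 3 were lower. Of the iron list 2 of 10 were higher, Cp and Lcn2, and 0 lower. Over the 4967 measured genes 2.54% were higher and 5.92% lower. The OPC list had 0 of 16 members higher and 3 lower. Oligodendrocyte differentiation genes had 2 of 17 higher, Aspa and Mal, and 2 lower. That list summed to 14031 CPM in cluster 1 and 12096 CPM in cluster 2. Its member Trf alone was at 9560 CPM in cluster 1 and 4679 CPM in cluster 2. Of 24 measured G2/M genes 23 were lower. The other cells include cluster 3, where the G2/M list summed to 8690 CPM, against 817 CPM in cluster 1 and 865 CPM in cluster 2. Rgs5 was 4.10-fold higher (2.07 to 8.41), yet its 24 UMIs came from 5 of the 27 cells, and 7 cells held it in the whole library.

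The clusters were also formed without 4 of the gene lists. Other genes that differed between the clusters, cartilage matrix and G2/M genes among them, stayed in. When the OPC, Schwann, iron and acute phase lists were left out of the clustering (73 genes), 4 clusters of 27, 25, 23 and 20 cells formed, which shared 26, 25, 22 and 18 cells with clusters 2, 1, 3 and 4. The cluster that matched cluster 1 had Lcn2 at 5680 CPM, Cp at 3180 CPM, Olig1 at 212 CPM (153 to 286), Olig2 at 69.0 CPM (37.7 to 116) and Sox10 at 311 CPM (239 to 397). The cluster that matched cluster 2 had Lcn2 at 319 CPM, Cp at 591 CPM, Olig1 at 691 CPM (583 to 813), Olig2 at 405 CPM (323 to 501) and Sox10 at 395 CPM (315 to 490). The intervals of Olig1 and Olig2 did not overlap between these 2 clusters and those of Sox10 did. The cluster that matched cluster 4 had Sox10 at 65.4 CPM (32.7 to 117). Its Trf level was 5007 CPM, above the 4550 CPM of the cluster that matched cluster 2, so the low Trf of cluster 4 did not recur against that cluster. Mostly the same cells were grouped and read again, so this repeat is a description and no independent support.

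Cluster 2 (26 cells) was higher in OPC and oligodendrocyte genes than the other cells together. Of oligodendrocyte differentiation genes 10 of 19 measured members were at least 2-fold higher and 0 lower, and of OPC genes 8 of 15 were higher and 0 lower. Over the 5043 measured genes 5.73% were higher and 7.65% lower. Olig2 was at 393 CPM (312 to 489) against 94.8 CPM in all other cells, in 19 of 26 cells, Olig1 at 644 against 242 CPM and Erbb3 at 708 against 339 CPM. Sox10 was at 364 CPM against 213 CPM, a ratio of 1.71 (1.26 to 2.29), and Pdgfra at 349 against 366 CPM. The other cells include cluster 4, where Sox10 was at 12.6 and Erbb3 at 44.1 CPM. In clusters 1 and 3 Sox10 was at 332 and 239 CPM and Erbb3 at 422 and 473 CPM.

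Single members of these 2 lists were seen in a part of the cells of cluster 2. Cldn11 was at 236 CPM (174 to 313) against 45.7 CPM, 5.16-fold higher (3.16 to 8.60), with UMIs in 11 of its 26 cells. Gpr17, a receptor gene of committed precursors, was at 280.2 CPM against 67.7 CPM, and Myrf at 246 against 84.6 CPM, each in 20 cells. Bcas1, a gene of newly formed oligodendrocytes, was at 103 against 13.5 CPM in 7 cells, and Mag, a myelin adhesion gene, at 113 against 32.2 CPM in 7 cells. Mbp, the myelin basic protein gene, was at 44.2 CPM (20.2 to 83.97) in 6 cells against 25.4 CPM, with no call. Fa2h, an enzyme gene of myelin lipids, was at 54.1 CPM in cluster 2 and 52.6 CPM in cluster 3.

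Cartilage, astrocyte and neuron genes were counted in the same cells. Of the cartilage matrix list 5 of 8 measured members were higher in cluster 2 and 0 lower. Col9a1 was at 2979 CPM against 1332 CPM, Col9a2 at 182 against 74.5 CPM and Col9a3 at 309.7 against 55.9 CPM. Of the astrocyte list 2 of 3 measured members were higher, Aldoc at 526 against 154 CPM and S100b at 1361.5 against 511 CPM, while Gfap, which defines astrocytes, had 3 UMIs in 1 cell. Of the neuron list 1 of 3 was higher, Gap43, a growth cone gene that young glia also express, at 133 against 35.6 CPM. Of the 9 astrocyte and 13 neuron markers 6 and 4 had a row, and the others were not analysed here.

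Other lists were lower in cluster 2. Of the acute phase list 1 of 13 measured members was higher, Tnfaip3, and 11 were lower, and of the iron list 0 of 9 were higher and 5 lower. Lcn2 was at 329 CPM against 4315 CPM in all other cells, Cp at 605 against 2192 CPM and Fth1 at 4846 against 11694 CPM. Of the G2/M list 22 of 24 were lower, and of the fibroblast list 1 of 20 was higher, Col1a2, and 10 were lower. These 2 lists are not particular to cluster 2, because the other cells include dividing cluster 3 and fibroblast-like cluster 4. The G2/M list summed to 865 CPM in cluster 2, 817 CPM in cluster 1 and 8690 CPM in cluster 3. Of the fibroblast list 8 members were lower in cluster 1 and 12 in cluster 3. Cluster 2 was led in fold by Fkbp15, 8.52-fold higher (5.61 to 13.3) with UMIs in 15 of 26 cells. It also held 6 of the 13 shallowest cells, whose part in these differences was not tested.

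**Figure D4:**
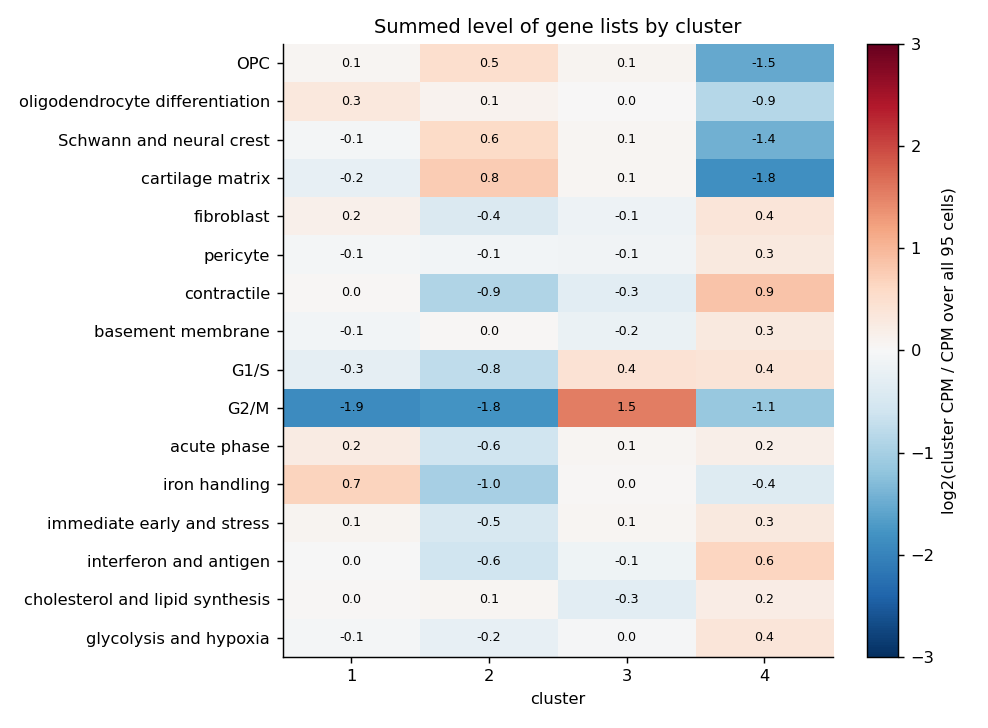
Each cell of the grid gives log2 of a list's summed CPM in a cluster over its CPM in all 95 cells. OPC, Schwann and cartilage lists are low in cluster 4 and high in cluster 2, G2/M is high in cluster 3, and iron handling is high in cluster 1 and low in cluster 2.

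Cluster 3 (24 cells) was led by genes of cell division. At 1000 UMIs per cell, 34 of 94 cells (36.2%, 26.5 to 46.7) held 3 or more UMIs of the 29 G2/M genes with a row, with 5 cells at exactly 3 and 7 at 2, close to the threshold. They were 22 of 24 cells in cluster 3, 4 of 27 in cluster 1, 3 of 25 in cluster 2 and 5 of 18 in cluster 4. All 28 measured G2/M genes were higher in cluster 3 than in all other cells and 0 lower, beside 7.27% higher and 4.65% lower of 5102 measured genes. Top2a, the topoisomerase gene of dividing cells, was at 1373 CPM, 11.6-fold higher (8.92 to 15.4), the cyclin gene Ccnb1 at 383 CPM, 15.99-fold higher (8.996 to 30.6), and the spindle motor gene Kif11 at 335 CPM, 10.9-fold higher (6.41 to 19.4). Mki67 was at 277 CPM in 22 of the 24 cells.

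Levels of Olig1, Olig2 and Lcn2 in cluster 3 lay between those of clusters 1 and 2. Olig1 was at 426 CPM (342 to 524) in cluster 3, beside 211 CPM in cluster 1 and 644 CPM in cluster 2, and Olig2 at 182 CPM (129 to 249), beside 62.8 and 393 CPM. Of the 47 Olig1 UMIs of cluster 1, 33 came from 1 cell. Lcn2 was at 3749 CPM in 17 of 24 cells, beside 6064 and 329 CPM, with a highest cell of 30458 CPM and a median cell of 269 CPM. Against all other cells, no member of the OPC list was called in either direction (0 of 15), and the cartilage list had 2 of 7 higher, Col11a2 and Hapln1, which links hyaluronan to proteoglycans. The order of Olig2 levels was cluster 2, 3, 1 and 4, and the intervals of neighbours in that order overlapped between clusters 1 and 4 only. The order of Sox10 levels was cluster 2, 1, 3 and 4, with overlapping intervals among the first 3.

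Gene by gene, the spread between cells beyond counting noise was compared by Pearson residual variance. For a gene that varies only by counting, this variance is near 1 at low levels and below 1 at high levels. It had a median of 1.18 over 6909 genes, and 674 genes (9.76%) were above 2. It was 23.8 for Lcn2, 23.7 for Spp1, 21.8 for Fn1, 21.5 for Serpina3n, 21.2 for Fth1 and 20.5 for Trf. Abundant genes reach higher values on this scale, and all 6 of these rest in part on uncertain large counts. Within the 27 cells of cluster 1 the leading genes were again Lcn2 (15.2), Serpina3n (13.8), Fth1 (13.3) and Trf (12.8), so their spread was not only a difference between clusters. Over the 77 cells outside cluster 4 they were Lcn2 (22.6), Trf (19.9), Fth1 (19.6) and Fn1 (18.8), and Olig1, whose counts are certain, was at 7.02.

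**Figure D5:**
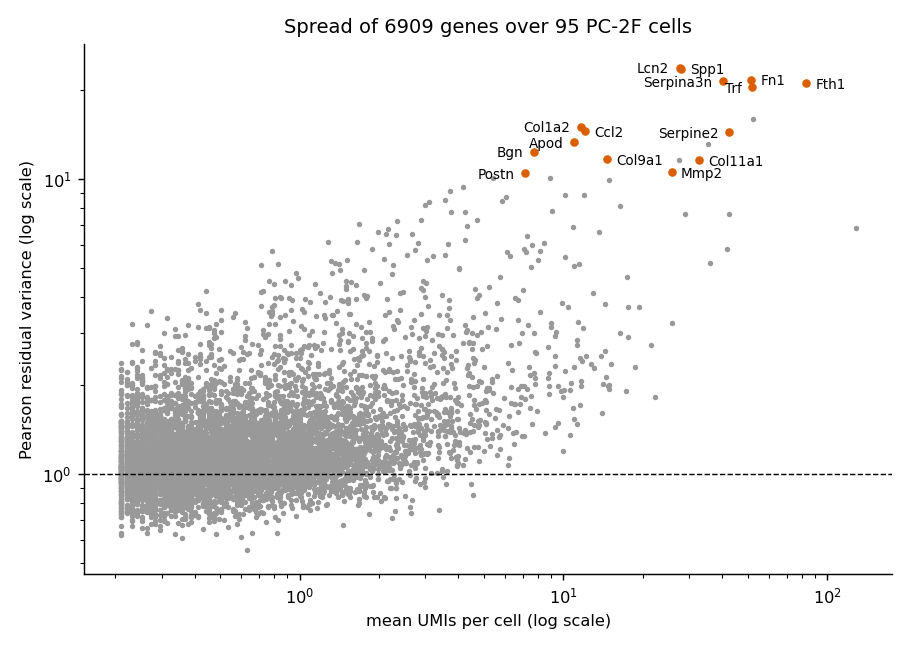
Each point is a gene, with its mean UMIs per cell and its Pearson residual variance over 95 cells, both on log scales, and the dashed line is at 1. The 15 named genes with the largest values are orange and labelled, from Postn at 10.5 to Lcn2 at 23.8; mitochondrial, ribosomal and unnamed genes stay grey.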

How the data were processed

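Single-cell 3′ libraries with UMIs were made on the ddSEQ system, per the labels' protocols. STAR 2.5.3a, featureCounts 1.6.1 and the build mm10 are named in the submitters' processing notes, which also list UMI-tools 0.5.3 and bcl2fastq 2.19.1.403, with no role or order. The deposited values, of a kind the authors do not name (unit: other), were decoded to UMI counts by aligning codes with text-sorted whole numbers under a smooth frequency model. That this is how the authors made them is inferred from the values. Decoding was checked on counts drawn from the curve that it had fitted to this library. That check cannot show that the deposited values are text-sorted places. Spread and clustering were checked on simulated cells with a single difference between groups, simpler than the clusters described here. The design had planned to take each barcode as a cell. Because 84 pairs of the 179 barcodes differ by 1 base and match in content, the deeper barcode of each pair was kept, which gives 95 cells. That choice was made after the data were seen.

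UMIs were summed over cells and scaled to 1000000 (CPM). Levels carry exact Poisson, shares Clopper-Pearson and ratios conditional binomial intervals at 95%, for counting error only. For clustering, the 1000 genes with the largest Pearson residual variance (overdispersion 100) were chosen. Components were taken from log(1 + UMIs per 10000), centred and scaled for each gene. Clusters used 15 components, 10 neighbours and Leiden at resolution 0.8 (leidenalg 0.10.2, scikit-learn 1.9.0, Python 3.11.15). A gene was measured at 10 UMIs and 50 CPM in either group, and called higher or lower at 2-fold with an interval excluding 1. All other cells of the library were the comparison of each cluster. A count of 0 was set at 3 UMIs over the group for a bound. CPM is not scaled by gene length, so levels are compared within a gene only.

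Named genes were the 10 largest folds per cluster at 200 CPM and 30 UMIs with an interval wholly above 2, the 25 and 15 largest residual variances over all cells and within the largest cluster, the 4 members of each of 26 lists with the largest difference between the fibroblast-high and the largest cluster, and 16 fixed genes. Some genes that this rule names are not reported here, and other genes were chosen after their values were seen, as were the split by Lcn2 and the clustering without 4 lists. Members and lists were chosen with earlier results of these data known. The design had planned for UMI counts as deposited.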

Additional observations from a re-analysis of the deposited data

How the results depend on the processing

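No paired analysis was possible because the labels give 1 library per population. The cluster with the highest fibroblast sum held 18.9% of cells, and 14.7% to 19.1% in the alternatives that kept 1 barcode per cell. With each of the 179 barcodes as a cell that share was 6.15%, the log2 difference of the fibroblast list from the largest cluster was 1.15 and the OPC list reversed to 0.80. In the main setting the fibroblast list was 0.21 higher. It was 0.57 higher with 500 variable genes, 0.46 and 0.93 at resolutions 0.4 and 1.2, 0.91 without the cell cycle lists, 0.30 with 2000 or more UMIs, 0.35 as a mean over cells, 0.53 with only sure codes, 0.83 without the cells of the highest UMIs and 0.48 with paired barcodes added. The OPC list, -1.60, was -2.01 and -1.83 with 500 and 2000 genes, -1.83 and -0.39 at resolutions 0.4 and 1.2, -2.21 without the cycle lists, -2.05 without the highest UMIs and -2.01 with paired barcodes added.

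Shares of cells depend on depth. At 2000 UMIs per cell Sox10 was seen in 33.3% and Olig2 in 23.8% of cells, and without thinning in 61.1% and 44.2%, with 3 or more G2/M UMIs in 73.7%. Between the Lcn2-high and the Lcn2-low group, Olig1 was at -2.74 on the log2 scale with 2000 or more UMIs, -2.4999 without dividing cells and -2.59 without the highest UMIs. With groups made on 1 random part of the UMIs and levels read on the other, Olig2 was at -2.62 and Sox10 at -0.56, an interval that spans 0. The causes of these shifts were not tested. The split by Lcn2 with its alternatives, and those on barcodes, were chosen after the data were seen. Other alternatives moved by less than the counting interval. In PC-2F 3 UMIs correspond to 3.78 CPM over the library.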

Other observations

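Some genes were carried by few cells. The antigen-presentation gene H2-Aa had 58 UMIs in 7 cells, 3 of them in cluster 3 and 2 in cluster 2, with up to 3326 CPM in a cell. Its partner H2-Ab1 had UMIs in 22 cells, 8 of them in cluster 3, at 158 CPM there, and none in cluster 4. The 5 macrophage markers with a row summed to 4.78 CPM in cluster 3. Rgs5 was carried by 7 cells, 5 of them in cluster 1, with up to 1717 CPM. The central myelin gene Mag was in 12 cells and had no UMI in cluster 4 (an upper limit of 23.2 CPM).

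Other lists were also counted in cluster 4, where 10.9% of all measured genes were higher and 10.8% lower than in all other cells. Of the interferon and antigen list 4 of 8 measured members were higher, Bst2, H2-D1, H2-K1 and Ifit1, and none was lower; the 12 UMIs of Ifit1 came from 1 cell. Of the acute phase list 6 of 14 were higher and 3 lower, with Ccl2, the monocyte-attracting chemokine gene, at 5957 CPM in 17 of the 18 cells against 318 CPM and Serpina3n at 523 against 5882 CPM. Fos, an immediate early gene, was at 6.30 CPM (1 UMI) in cluster 4 and 184 CPM in the other cells, while 6 of 16 measured genes of the same list were higher and 4 lower.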
